A study of Homo sapiens with 9 samples.

Results

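The genes described here are the E2 ubiquitin-conjugating enzymes of LNCaP cells, taken as every gene whose symbol starts with UBE2 and whose normalized read count averaged at least 1 over the 9 libraries. The table lists 19984 genes, of which 36 carry such a symbol and 35 passed. *UBE2L5*, with a mean of 2.19, lay just inside the limit, and *UBE2U*, with a mean of 0.647, was the gene left out. Of these 35 members, 33 had a mean of at least 10.

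LNCaP cells are a line of human prostate cancer. RNA-seq was measured in a clone with wild-type *EPCART* (WT clone) and in 2 clones, del-4 and del-56, in which CRISPR-Cas9 had removed the promoter of the long noncoding RNA gene *EPCART* together with its exons 1 and 2 (*EPCART*-del). Each clone was represented by 3 cultures, grown for 48 h in RPMI medium with 10% FBS, so that the p-values given here measure the spread between cultures of 1 clone, and an effect of the deletion cannot be told apart from other differences between clones. The 3 WT libraries were the control of both deletion clones. The RNA of *EPCART* itself, which is noncoding, was not analysed here, and the deletion was not checked from these values.

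The counts of all protein-coding genes summed to between 91074556 and 118877134 in each library. This sum, called reads on genes below, can count a read again where genes overlap. All 10 prostate luminal markers examined, *KLK3* among them, had a mean of at least 10 in every clone, with a summed normalized count between 369173 and 393764 per library. The 4 basal, 6 fibroblast, 5 immune and 3 endothelial markers summed to at most 64.3, 1569, 577 and 719 per library. A mean of at least 10 was reached in each clone by 1 basal, 4 fibroblast, 1 immune and 1 endothelial marker. *CD3E* of the immune list and *CDH5* of the endothelial list had 0 reads in every library. The endothelial sum was 288 to 326 in del-4 and 509 to 719 in del-56 against 589 to 615 in WT. The fibroblast sum was 1274 to 1488 in del-4 and 1421 to 1569 in del-56, both above the 1116 to 1205 of WT, and the immune sum was 549 to 577 in del-4 and 527 to 567 in del-56 against 490.2 to 536 in WT. The part of the marker lists in the differences below was not tested.

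Ubiquitin is attached to proteins by a relay of 3 kinds of enzyme. An E1 enzyme activates it, an E2 enzyme carries it as a thioester on a catalytic cysteine, and an E3 ligase brings the charged E2 to the substrate. The choice of E2 often sets which ubiquitin chain is built, and with it whether the substrate is degraded, moved or switched in its activity. Several E2 enzymes carry not ubiquitin but a related modifier, such as SUMO, NEDD8 or ISG15.

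*UBE2E3* is the member nearest to the deleted locus. It lies at chr2:180967248-181076585 on the forward strand of GRCh38, and the primers used to measure *EPCART* map to chr2:180141322-180141341 and chr2:180123351-180123371, the nearer of them 825906 bases before the start of *UBE2E3*. Its paralogs *UBE2E2* (chr3:23203020-23591794) and *UBE2E1* (chr3:23805955-23891640) are neighbours on chromosome 3, both on the forward strand. Because the 3 proteins are close relatives, reads of one gene could in principle be placed on another. The coding sequences were 79.5% identical between *UBE2E3* and *UBE2E2*, 77.6% between *UBE2E3* and *UBE2E1* and 79.0% between *UBE2E1* and *UBE2E2*. The stretch of 150 coding bases, the length of 1 read, in which *UBE2E3* is most like its nearest paralog is shown, as spliced in the GENCODE transcripts, to give the number of bases that tell the genes apart. In *UBE2E3* (coding bases 229 to 378) capitals mark positions at which either paralog differs, and in the paralogs capitals mark differences from *UBE2E3*.
UBE2E3: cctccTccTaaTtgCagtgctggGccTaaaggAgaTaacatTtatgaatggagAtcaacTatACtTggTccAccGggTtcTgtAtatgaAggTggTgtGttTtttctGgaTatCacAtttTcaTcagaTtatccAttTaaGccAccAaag
UBE2E1: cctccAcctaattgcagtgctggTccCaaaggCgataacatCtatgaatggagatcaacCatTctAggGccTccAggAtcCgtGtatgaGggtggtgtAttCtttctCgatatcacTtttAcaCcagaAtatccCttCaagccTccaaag
UBE2E2: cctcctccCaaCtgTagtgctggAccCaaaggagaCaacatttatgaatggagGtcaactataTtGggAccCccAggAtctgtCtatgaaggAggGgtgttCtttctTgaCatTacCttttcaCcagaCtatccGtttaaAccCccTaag
Even here *UBE2E1* differed from *UBE2E3* at 25 and *UBE2E2* at 27 of the 150 bases. The longest run without a difference was 26 bases between *UBE2E3* and either paralog. Other members are closer to a copy, and their split between genes is less certain. *UBE2L3* and *UBE2L5* were 97.6% identical over their coding bases, and *UBE2D2* and *UBE2D3* 86.5%, with a shared run of 80 bases. In GENCODE 16 pseudogenes are named after *UBE2V1*, 13 after *UBE2Q2* and 5 after *UBE2C*.

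The members spanned a wide range of expression. Compared per length, as reads per kilobase of exon per 1000000 reads on genes, *UBE2S*, which overlaps the span of the abundant *RPL28* and is less certain, was highest in WT at 134 ± 0.95 (SD, n = 3), followed by *UBE2M* at 116 ± 3.4 and *UBE2C* at 71.8 ± 1.3. *UBE2S* and *UBE2C* extend and start ubiquitin chains for the anaphase-promoting complex, and *UBE2M* carries NEDD8. *UBE2E1* and *UBE2E3* had like levels in WT, at 32.6 ± 0.12 and 32.2 ± 1.2, within the spread of the *UBE2E3* libraries. *UBE2E2* was lower at 15.1 ± 0.87. The level of *UBE2E1* is less certain too, because 33.8% of its exon bases overlap exons of *NKIRAS1* on the opposite strand. Levels of all members were divided by exon length, whereas reads may have been counted over whole gene spans. Among the 33 members with a mean of at least 10, *UBE2L6* was lowest in WT at 1.67 ± 0.19. *UBE2L5* and *UBE2QL1* had at most 8 and 18 reads in a library and are given only as counts.

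**Figure D1:**
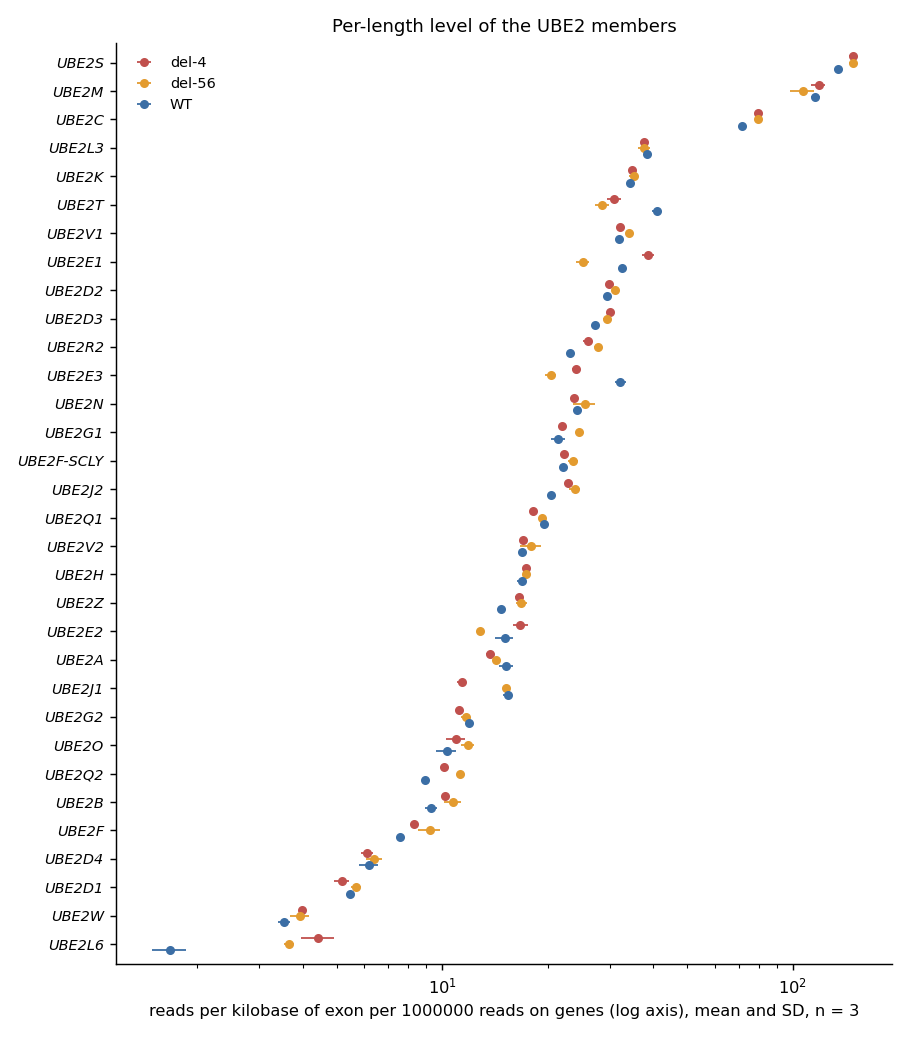
Level of 32 members with a mean of at least 10, as reads per kilobase of exon per 1000000 reads on genes on a log axis, with the mean and SD of the 3 libraries of del-4 (red), del-56 (orange) and WT (blue). The order runs from *UBE2L6*, at 1.67 ± 0.19 in WT, to *UBE2S*, at 134 ± 0.95, whose count is less certain for its overlap with *RPL28*, and the colours separate most at *UBE2L6*, *UBE2E1* and *UBE2E3*.

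Against WT, 18 of the 35 members were higher and 4 lower in del-4, and 16 were higher and 5 lower in del-56 (limma on log2 normalized counts, Benjamini-Hochberg adjusted p under 0.05 over all genes). Of all genes tested 40.7% were called in del-4, 20.5% higher and 20.2% lower, and 39.7% in del-56, 19.2% higher and 20.5% lower. The members' median log2FC was 0.10 in either clone, beside -0.0028 and -0.0011 over all genes tested. Without overlap between the clone's 3 libraries and the WT libraries were 27 members in del-4, where the share over all genes was 49.5%, and 22 in del-56, where it was 48.7%. The call was the same in both clones for 13 members that rose and 3 that fell, *UBE2E3* and *UBE2T* among them. The share of all genes with the same call in both clones was not computed. Both tests used the same WT libraries, so the calls of a member in the clones are not independent. *UBE2L6*, *UBE2L5* and *UBE2QL1* apart, the log2FC lay between -0.63 and 0.36. Only *UBE2L6* passed an unadjusted p under 0.05 with a log2FC beyond 1, in both clones, a rule that 5.82% of genes passed in del-4 and 5.94% in del-56. When every library was scaled to the same total, 13 members were higher and 7 lower in del-4, and 14 were higher and 5 lower in del-56, with *UBE2A*, *UBE2G2* and *UBE2Q1* the added lower calls in del-4. Of all genes, that scaling called 13.6% higher and 28.4% lower in del-4, and 15.7% higher and 22.9% lower in del-56. In these bulk libraries fewer cells holding a transcript and less transcript per cell cannot be told apart.

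**Figure D2:**
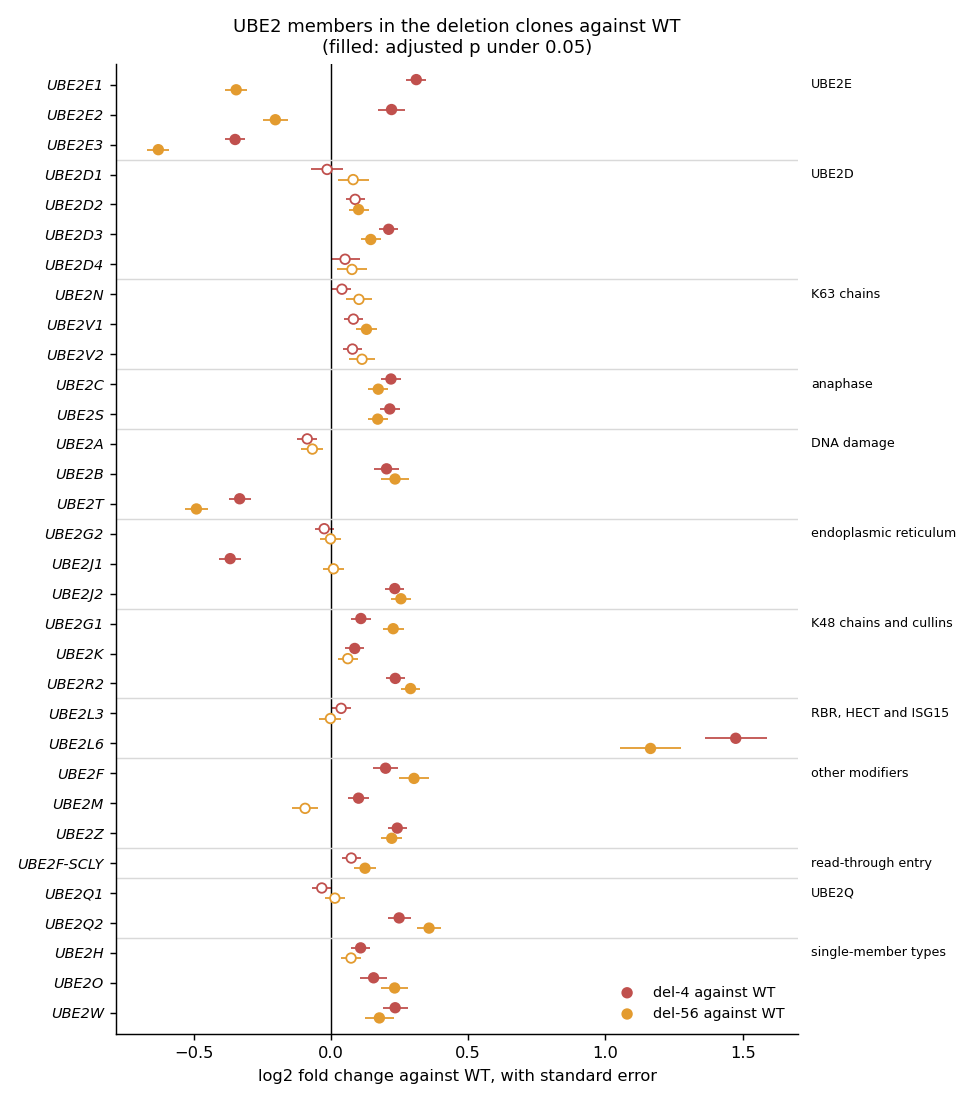
Log2 fold change against WT (horizontal axis, with standard error) of 32 members with a mean of at least 10, del-4 in red and del-56 in orange, grouped by role. Filled points passed an adjusted p under 0.05. *UBE2L6* stands far to the right in both clones, *UBE2E3* and *UBE2T* lie left of 0 in both, and *UBE2E1* and *UBE2E2* lie on opposite sides of 0 in the 2 clones.

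The UBE2E enzymes carry an N-terminal extension ahead of the catalytic domain and work with many RING ligases, and importin-11 moves charged UBE2E3 into the nucleus. *UBE2E3* counted 8026, 7919 and 8317 in the del-4 libraries, 6710.4, 6834 and 6442 in the del-56 libraries and 10190.4, 10106 and 10601 in the WT libraries. All 6 deletion libraries lay below the 3 WT libraries, and the del-56 libraries lay below those of del-4. *UBE2E3* fell by 21.5% in del-4, with a log2FC of -0.35 (adjusted p = 6.1e-07, SE 0.037), and fell by 35.3% in del-56, with a log2FC of -0.63 (adjusted p = 5e-09, SE 0.04). The call held with any 1 library left out, with log2FC running from -0.37 to -0.33 for del-4 and from -0.65 to -0.60 for del-56.

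Its paralogs moved differently in the 2 clones. *UBE2E1* counted 14685, 14972 and 14056 in the del-4 libraries, 8793, 9586 and 9371 in the del-56 libraries and 11874, 11787 and 11565 in the WT libraries. The del-4 libraries were the highest, the WT libraries intermediate and the del-56 libraries the lowest, with no overlap. The log2FC was 0.31 (adjusted p = 1.6e-06, SE 0.036) in del-4 and -0.34 (adjusted p = 4.7e-06, SE 0.04) in del-56. *UBE2E2* counted 6419, 5711 and 6233 in the del-4 libraries, 4542, 4472 and 4665 in the del-56 libraries and 5004, 5543 and 5202 in the WT libraries. The order of the clones was the same as for *UBE2E1*, again without overlap, and the log2FC was 0.22 (adjusted p = 0.0014, SE 0.049) in del-4 and -0.20 (adjusted p = 0.0024, SE 0.046) in del-56. Thus all 3 UBE2E genes fell in del-56, and in del-4 *UBE2E3* fell while *UBE2E1* and *UBE2E2* rose. The direct test between the clones gave log2FC of 0.66 (adjusted p = 2e-09, SE 0.041) for *UBE2E1*, 0.42 (adjusted p = 4e-06, SE 0.048) for *UBE2E2* and 0.28 (adjusted p = 6.6e-05, SE 0.04) for *UBE2E3*, del-4 over del-56.

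**Figure D3:**
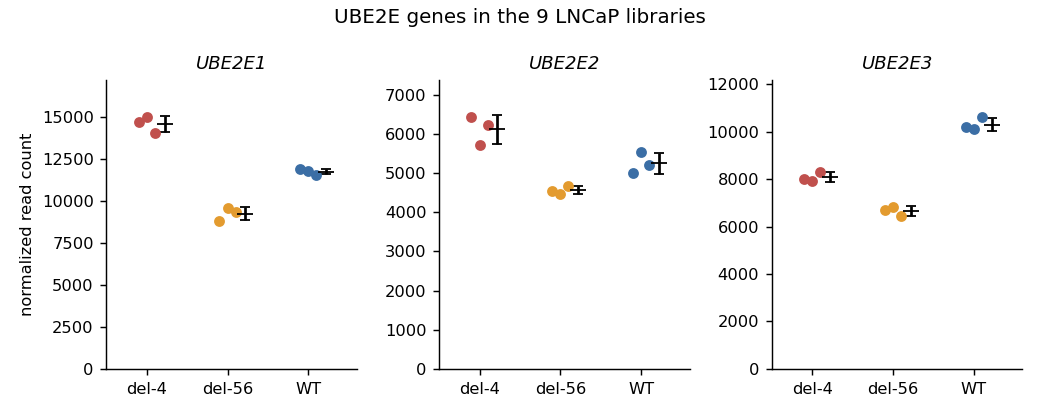
Normalized read count (vertical axis, from 0) of *UBE2E1*, *UBE2E2* and *UBE2E3* in each library of del-4, del-56 and WT, with the mean and SD of the 3 libraries as black bars. *UBE2E3* is highest in WT, whereas *UBE2E1* and *UBE2E2* are highest in del-4 and lowest in del-56, and no clone overlaps another in any panel.

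Summed over the 3 genes, the UBE2E count was 28779 ± 304 (del-4), 20472 ± 424 (del-56) and 27291 ± 196 (WT) (SD, n = 3). *UBE2E3* made up 28.1 ± 0.842% of that sum (del-4), 32.5 ± 1.02% (del-56) and 37.7 ± 0.952% (WT), and *UBE2E1* 50.6 ± 1.61%, 45.2 ± 1.13% and 43.0 ± 0.807%. The share of *UBE2E3* was thus lowest in del-4 and highest in WT. Among the other genes within 5000000 bases of *UBE2E3* the median log2FC was -0.10 in del-4 (31 genes) and -0.12 in del-56 (31 genes), and over chromosome 2 it was -0.15 and -0.16. The drop of *UBE2E3* was larger than either median in both clones, and the part of the chromosome in it was not tested. Around *UBE2E1* the same median was 0.091 for del-4 and 0.042 for del-56, on the upper side of 0 also in del-56, where *UBE2E1* and *UBE2E2* fell. The count of *UBE2E1* may hold reads of another gene, because 33.8% of its exon bases overlap exons of *NKIRAS1*, an inhibitor of NF-kappa-B signalling on the opposite strand, and the reads may have been counted on both strands. The *NKIRAS1* count less that of *RPL15*, a ribosomal protein gene within it, was 10008 ± 528 (del-4), 6769 ± 517 (del-56) and 7919.5 ± 297 (WT), in the same order as *UBE2E1*, and which of the 2 genes the change belongs to cannot be told apart from these counts. *UBE2E2* shares no exon bases with another gene of the table.

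The 3 genes listed with *UBE2E3* for its nuclear import and its known partner pathway were followed beside it. *IPO11*, which encodes importin-11, did not pass the test in either clone, with log2FC of -0.039 for del-4 and -0.034 for del-56. *NFE2L2*, the oxidative stress factor NRF2, had log2FC of -0.04 (adjusted p = 0.5, SE 0.043) in del-4 and -0.13 (adjusted p = 0.027, SE 0.043) in del-56. *KEAP1*, the adaptor that targets NRF2 for degradation, had log2FC of 0.028 (adjusted p = 0.6, SE 0.038) in del-4 and -0.18 (adjusted p = 0.0016, SE 0.039) in del-56, where it fell.

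The largest change of the family was in *UBE2L6*, the E2 enzyme that carries ISG15, a ubiquitin-like modifier induced by interferon. *UBE2L6* counted 1099, 1098 and 905 in the del-4 libraries, 807, 859 and 825 in the del-56 libraries and 398, 398 and 319.6 in the WT libraries. All 6 deletion libraries lay above the WT libraries, and the lowest of them was at 807 against at most 398 in WT. *UBE2L6* was 2.78 times WT in del-4, with a log2FC of 1.47 (adjusted p = 9.7e-09, SE 0.11), and 2.24 times WT in del-56, with a log2FC of 1.16 (adjusted p = 5.8e-07, SE 0.11). With any 1 library left out the log2FC ran from 1.37 to 1.57 for del-4 and did not go below 1.06 for del-56. The 89 other genes tested within 5000000 bases on chromosome 11 had a median log2FC of -0.013 in del-4, and 88 had one of 0.012 in del-56.

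The other genes of the ISG15 pathway moved in differing directions. Of the 5 listed, 2 rose and 2 fell in del-4, and 1 rose and 2 fell in del-56. *ISG15*, the modifier itself, counted 5096, 4379 and 4661 in the del-4 libraries, 3699, 3216 and 3192 in the del-56 libraries and 4462, 4719.7 and 4688 in the WT libraries. The del-4 and WT libraries overlapped, at a log2FC of 0.025 (adjusted p = 0.74, SE 0.051), and the del-56 libraries were lower, at -0.46 (adjusted p = 8.4e-06, SE 0.057). *UBA7*, the E1 enzyme that activates ISG15, was low, between 30.9 and 104 per library, and rose in del-4 with a log2FC of 0.87 (adjusted p = 0.029, SE 0.31); in del-56 it was 0.40 (adjusted p = 0.37, SE 0.32). *HERC5*, the main ISG15 ligase, fell in del-4 with a log2FC of -0.72 (adjusted p = 8e-05, SE 0.12) and was -0.094 (adjusted p = 0.47, SE 0.093) in del-56. *USP18*, which removes ISG15, fell in both clones, with log2FC of -0.21 for del-4 and -0.33 for del-56. *TRIM25*, a ligase that ISG15 and ubiquitin both use, rose in both by 0.12 on the log2 scale.

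**Figure D4:**
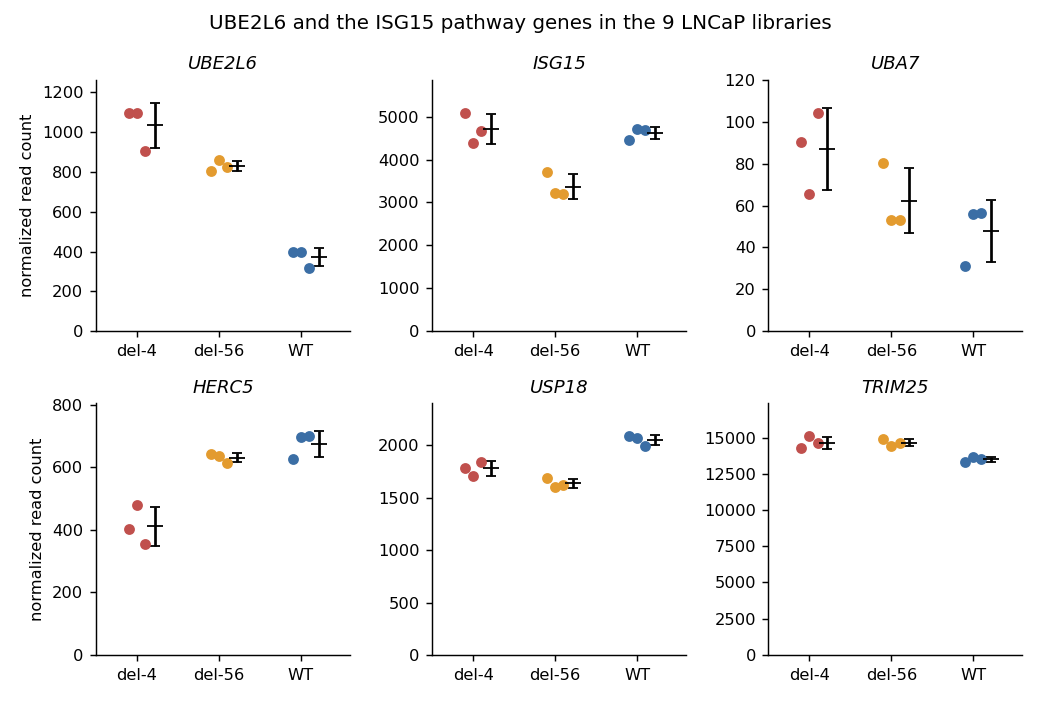
Normalized read count (vertical axes, each from 0) of *UBE2L6* and the 5 listed ISG15 pathway genes in each library of del-4, del-56 and WT, with the mean and SD of the 3 libraries as black bars. Both deletion clones stand far above WT for *UBE2L6* and slightly above it for *TRIM25*, while *ISG15* is lowest in del-56 and *HERC5* lowest in del-4.

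*UBE2L3*, the relative of *UBE2L6* that charges HECT and RING-between-RING ligases, counted between 15574 and 17003 and had log2FC of 0.037 (adjusted p = 0.43, SE 0.035) and -0.0016 (adjusted p = 0.98, SE 0.04). Neither passed the test. Of the 25 HECT and RING-between-RING ligases listed, 8 rose and 4 fell in del-4 and 6 rose and 6 fell in del-56, with medians of 0.07 and 0.049. *RNF217*, a RING-between-RING ligase, fell with log2FC of -0.69 for del-4 and -1.09 for del-56, from a WT mean of 189. *SMURF2*, a ligase of TGF-beta signalling, rose by 0.32 and 0.40, and *WWP2* fell, at -0.32 for del-4 and -0.25 for del-56. *UBE2L5* had 0 to 8 reads per library, and no fold is given.

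*UBE2C* and *UBE2S* serve the anaphase-promoting complex, the ligase that ends mitosis. *UBE2C*, which starts the chain, counted 11634, 11631 and 11435 in the del-4 libraries, 11007, 11309 and 11292 in the del-56 libraries and 10066, 10117 and 9640.5 in the WT libraries. *UBE2S*, which extends it, counted 48359.8, 46866 and 45576 in the del-4 libraries, 46656, 44546 and 45351 in the del-56 libraries and 41122, 40094 and 40103 in the WT libraries. For both genes every deletion library lay above every WT library. The log2FC of *UBE2C* was 0.22 (adjusted p = 7.2e-05, SE 0.035) in del-4 and 0.17 (adjusted p = 0.0015, SE 0.037) in del-56, and that of *UBE2S* 0.21 (adjusted p = 9.7e-05, SE 0.036) and 0.17 (adjusted p = 0.0015, SE 0.037). Genes within 5000000 bases of *UBE2C* on chromosome 20 had medians of 0.052 and 0.10. The part of that neighbourhood in the change of *UBE2C* was not tested. *UBE2S* overlaps the span of *RPL28*, a ribosomal protein gene on the opposite strand whose count was 104364 ± 2968 in del-4 and 87690.2 ± 3377 in WT (SD, n = 3), so the value of *UBE2S* is less certain. Among the 16 subunits and activators of the complex, 3 rose and 5 fell in either clone, with medians of 0.041 and -0.047. *CDC20*, the activator of early mitosis, rose with log2FC of 0.27 for del-4 and 0.37 for del-56, and *CDC27* rose with 0.17 for del-4 and 0.24 for del-56. The scaffold subunit *ANAPC1* fell with -0.41 for del-4 and -0.32 for del-56, and *ANAPC15* with -0.18 for del-4 and -0.25 for del-56.

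The members *UBE2A*, *UBE2B* and *UBE2T* act in DNA repair and on chromatin, and they moved in different directions. *UBE2T*, which with the ligase FANCL monoubiquitinates FANCD2 in the Fanconi anaemia pathway, counted 6498, 6941 and 6820.2 in the del-4 libraries, 5843, 6355 and 5968 in the del-56 libraries and 8709, 8212 and 8584 in the WT libraries. Every deletion library lay below every WT library. *UBE2T* fell by 20.6% in del-4, with a log2FC of -0.33 (adjusted p = 2.5e-06, SE 0.04), and fell by 28.8% in del-56, with a log2FC of -0.49 (adjusted p = 2.4e-07, SE 0.043), while its neighbours within 5000000 bases on chromosome 1 had medians of -0.082 and -0.009. *UBE2B*, one of a pair of RAD6 homologs, counted 3936, 3893 and 3923 in the del-4 libraries, 3772, 4228 and 4021 in the del-56 libraries and 3455, 3260.4 and 3501 in the WT libraries. It rose in both clones without overlap, with log2FC of 0.20 (adjusted p = 0.0014, SE 0.045) and 0.23 (adjusted p = 0.0019, SE 0.052). Its near twin *UBE2A* counted 9238, 9408 and 9162 in the del-4 libraries, 9234, 9267 and 9675 in the del-56 libraries and 9713, 9574 and 10244 in the WT libraries and passed in neither clone, with log2FC of -0.086 (adjusted p = 0.075, SE 0.037) and -0.067 (adjusted p = 0.2, SE 0.04). Exons of *UBE2A* overlap those of *NKRF* and *STEEP1* on the opposite strand. Of the 8 ligases listed with these members 1 rose and 4 fell in del-4 and 2 rose and 4 fell in del-56, with medians of -0.12 and -0.16. *RNF20* and *RNF40* form the ligase that ubiquitinates histone H2B with RAD6. *RNF40* fell, at -0.47 for del-4 and -0.45 for del-56, and *RNF20* rose, at 0.12 for del-4 and 0.15 for del-56. *SHPRH* and *HLTF*, which extend chains on PCNA, both fell, *SHPRH* at -0.28 for del-4 and -0.31 for del-56 and *HLTF* at -0.17 for del-4 and -0.22 for del-56.

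Of the 3 members of endoplasmic reticulum degradation, *UBE2J2* rose in both clones. *UBE2J2*, an E2 anchored in the membrane, counted 12349, 11856 and 12167 in the del-4 libraries, 12779, 12153 and 12018 in the del-56 libraries and 10389, 10419 and 10143 in the WT libraries. The deletion libraries lay above WT without overlap, with log2FC of 0.23 (adjusted p = 3.2e-05, SE 0.035) and 0.26 (adjusted p = 5.6e-05, SE 0.038). Genes within 5000000 bases of it on chromosome 1, 80 genes in each clone, had medians of 0.16 and 0.17. The other membrane-anchored E2, *UBE2J1*, which was singled out after its values were seen, counted 5206, 5367 and 5453 in the del-4 libraries, 6998, 6865 and 6934 in the del-56 libraries and 6869, 7114 and 6686 in the WT libraries. The 3 del-4 libraries lay below all others, and del-56 and WT overlapped. *UBE2J1* fell by 22.4% in del-4, with a log2FC of -0.37 (adjusted p = 8.3e-07, SE 0.04), and had 0.0093 (adjusted p = 0.88, SE 0.04) in del-56. Its 28 neighbours on chromosome 6 were at -0.18 in the median in del-4, and 29 tested in del-56 were at 0.018, while chromosome 6 as a whole was at -0.017 and 0.033 in the 2 clones. The neighbours and *UBE2J1* were thus low in the same clone, with *UBE2J1* lower than their median, and the part of the neighbourhood in its change was not tested. *UBE2G2*, the soluble E2 of this pathway, had log2FC of -0.024 (adjusted p = 0.62, SE 0.034) and -0.0013 (adjusted p = 0.98, SE 0.038). Of the 13 pathway genes 3 rose and 2 fell in del-4 and 3 rose and 3 fell in del-56. *VCP*, the ATPase that pulls substrates from the membrane, rose, at 0.26 for del-4 and 0.30 for del-56, and so did the ligase *MARCHF6*, at 0.18 for del-4 and 0.24 for del-56. *DERL3* fell, at -0.37 for del-4 and -0.75 for del-56.

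Other modifiers have pathways of their own. Of 16 SUMO pathway genes 6 rose and 1 fell in del-4 and 7 rose and 1 fell in del-56, with medians of 0.089 and 0.093. *SAE1*, a subunit of the SUMO E1, rose, at 0.47 for del-4 and 0.34 for del-56, as did the SUMO ligase *PIAS1*, at 0.17 for del-4 and 0.39 for del-56, and *PIAS2*, at 0.11 for del-4 and 0.24 for del-56. The gene that fell was *RANBP2*, a ligase at the nuclear pore, at -0.26 for del-4 and -0.29 for del-56.

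*UBE2F* and *UBE2M* carry NEDD8, which activates cullin-RING ligases. *UBE2F*, which serves CUL5, counted 4008, 3882 and 4052 in the del-4 libraries, 3919.6, 4431 and 4504 in the del-56 libraries and 3551, 3507 and 3345 in the WT libraries. It rose in both clones without overlap, with log2FC of 0.20 (adjusted p = 0.0016, SE 0.045) and 0.30 (adjusted p = 0.00037, SE 0.055). The genes within 5000000 bases of it on chromosome 2 had medians of -0.12 and -0.14, on the other side of 0. A further entry, *UBE2F-SCLY*, is annotated as a read-through of *UBE2F* and *SCLY*. Its reads were those of the 2 genes, with 3.0% to 4.35% of them in neither, so that it is no separate measurement. It had log2FC of 0.074 (adjusted p = 0.11, SE 0.035) and 0.12 (adjusted p = 0.018, SE 0.039), the second lost without replicate 2 or 3 of del-56 or replicate 3 of WT. *UBE2M*, which serves the other cullins, had log2FC of 0.10 (adjusted p = 0.045, SE 0.039) in del-4 and -0.094 (adjusted p = 0.13, SE 0.047) in del-56. Its call in del-4 was lost in 5 of the 6 fits that left out 1 library and held without del-4 replicate 3, and in del-56 it became a lower call without del-56 replicate 1. Of 10 NEDD8 pathway genes 1 rose and 3 fell in del-4 and 3 fell in del-56. The 3 that fell in both were *NAE1*, a subunit of the NEDD8 E1, at -0.35 for del-4 and -0.34 for del-56, *DCUN1D2*, a NEDD8 ligase, at -0.54 for del-4 and -0.45 for del-56, and *COPS5*, which removes NEDD8 from cullins, at -0.11 for del-4 and -0.20 for del-56. *UBE2Z*, which receives ubiquitin and FAT10 from UBA6, counted 10599, 10870.2 and 10652 in the del-4 libraries, 10667, 10808 and 10209 in the del-56 libraries and 9105, 8891 and 9169 in the WT libraries. It rose in both clones without overlap, with log2FC of 0.24 (adjusted p = 2.1e-05, SE 0.035) and 0.22 (adjusted p = 0.00022, SE 0.038).

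The UBE2D enzymes are the partners most widely used by RING ligases. *UBE2D3* counted 34289, 33544 and 34456 in the del-4 libraries, 31612, 32665 and 33511 in the del-56 libraries and 30137, 29174 and 29098 in the WT libraries. It rose in both clones without overlap, with log2FC of 0.21 (adjusted p = 6.9e-05, SE 0.034) and 0.15 (adjusted p = 0.0053, SE 0.037). *UBE2D2* had log2FC of 0.088 (adjusted p = 0.052, SE 0.035) in del-4 and 0.10 (adjusted p = 0.036, SE 0.036) in del-56. The call of *UBE2D2* in del-56 was lost without replicate 2 or 3 of del-56 or of WT, and in del-4 it was gained without WT replicate 1. *UBE2D1* and *UBE2D4* passed in neither clone, *UBE2D1* with log2FC of -0.014 for del-4 and 0.081 for del-56, *UBE2D4* with 0.052 for del-4 and 0.077 for del-56.

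Chains linked through lysine 63, which signal rather than degrade, are built by UBE2N with a catalytically inactive partner, UBE2V1 or UBE2V2. *UBE2V1* had log2FC of 0.082 (adjusted p = 0.07, SE 0.035) in del-4 and 0.13 (adjusted p = 0.011, SE 0.037) in del-56, where the call was lost without replicate 3 of del-56 or replicate 2 or 3 of WT. Its reads are also counted in an entry for the read-through gene *PEDS1-UBE2V1*. Genes within 5000000 bases of *UBE2V1* on chromosome 20 had medians of 0.032 and 0.11. The part of that neighbourhood in its change was not tested. *UBE2V2* had 0.079 (adjusted p = 0.087, SE 0.035) and 0.11 (adjusted p = 0.066, SE 0.047), and *UBE2N* 0.04 (adjusted p = 0.39, SE 0.034) and 0.10 (adjusted p = 0.11, SE 0.048). Neither *UBE2V2* nor *UBE2N* passed the test, but with del-56 replicate 1 left out both rose in that clone, and without WT replicate 1 *UBE2V1* and *UBE2V2* rose in del-4. *UBE2V2* also passed in del-56 when all 9 libraries were fitted at once, a fit in which *UBE2D2* was gained and *UBE2K* and *UBE2M* were lost in del-4. Exons of *UBE2N* share 41.6% of their bases with *NUDT4* on the opposite strand, whose count was 11830.0 ± 692 in del-56 against 9922 ± 109 in WT (SD, n = 3).

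The members *UBE2G1*, *UBE2K* and *UBE2R2* build lysine 48 chains, the mark for the proteasome, or work with cullin-RING ligases. *UBE2R2*, a cullin E2 related to CDC34, counted 12905, 13376 and 13165 in the del-4 libraries, 13835, 13244 and 13921 in the del-56 libraries and 11156, 11211 and 11156 in the WT libraries. Its deletion libraries lay above WT without overlap, with log2FC of 0.23 (adjusted p = 2.2e-05, SE 0.034) and 0.29 (adjusted p = 1e-05, SE 0.036). *UBE2G1*, which extends chains on cullin substrates, counted 11538, 11469.8 and 11205 in the del-4 libraries, 12498, 12224 and 12399 in the del-56 libraries and 10178, 10714 and 10835 in the WT libraries. It rose in both clones without overlap, with log2FC of 0.11 (adjusted p = 0.023, SE 0.037) and 0.23 (adjusted p = 0.00016, SE 0.038). The call in del-4 was lost without replicate 1 or 2 of del-4 or replicate 1 of WT, with every library at the same total and with quantile normalization. *UBE2K* had 0.087 (adjusted p = 0.048, SE 0.034) in del-4, lost in 5 of 6 fits that left out 1 library (it held without WT replicate 1), and 0.061 (adjusted p = 0.21, SE 0.037) in del-56. Of 15 cullin-RING components 3 rose and 4 fell in del-4 and 3 rose and 5 fell in del-56, with medians of 0.0056 and 0.0079. The paired RING subunits went in opposite directions. *RBX1*, which serves CUL1 to CUL4, fell at -0.24 for del-4 and -0.37 for del-56, and *RNF7*, which serves CUL5, rose at 0.29 for del-4 and 0.19 for del-56. *CUL4A* fell at -0.21 for del-4 and -0.18 for del-56 and *CUL7* at -0.21 for del-4 and -0.26 for del-56.

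Of the remaining members with a mean of at least 10, *UBE2Q2* changed most. *UBE2Q2*, of a family with a long N-terminal part, counted 4438, 4338 and 4382 in the del-4 libraries, 4774, 4614 and 4804 in the del-56 libraries and 3686, 3760.3 and 3629 in the WT libraries. It rose in both clones without overlap, with log2FC of 0.25 (adjusted p = 0.00011, SE 0.042) and 0.36 (adjusted p = 7.2e-06, SE 0.043). *UBE2Q1* had -0.033 for del-4 and 0.014 for del-56 and passed in neither. *UBE2QL1* had 0 to 18 reads per library, and no fold is given.

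*UBE2W*, which attaches ubiquitin to the N-terminus of substrates, counted 4098, 4105 and 4035 in the del-4 libraries, 3675, 3924 and 4177 in the del-56 libraries and 3575, 3305 and 3531 in the WT libraries. It rose without overlap, with log2FC of 0.23 (adjusted p = 0.00042, SE 0.045) and 0.18 (adjusted p = 0.016, SE 0.054), the second of which was lost without del-56 replicate 3 or WT replicate 2. *UBE2O*, which acts as E2 and E3 in 1 protein, counted 7504, 8333 and 7898 in the del-4 libraries, 8719.8, 8039 and 8263 in the del-56 libraries and 6832, 7617 and 6866 in the WT libraries. Its del-4 and WT libraries overlapped, and it rose with log2FC of 0.16 (adjusted p = 0.014, SE 0.048) and 0.23 (adjusted p = 0.0011, SE 0.048). The call in del-4 was lost without replicate 2 or 3 of del-4 or replicate 1 or 3 of WT, and with every library at the same total. *UBE2H*, the E2 of the CTLH ligase complex, had 0.11 (adjusted p = 0.02, SE 0.035) in del-4, lost without replicate 1 of del-4 or of WT, and 0.073 (adjusted p = 0.11, SE 0.035) in del-56.

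Upstream of the E2 enzymes, the polyubiquitin gene *UBB* rose, at 0.28 for del-4 and 0.21 for del-56. Of the 10 E1 enzymes and subunits 6 rose and 1 fell in del-4 and 3 rose and 2 fell in del-56. *UBA1*, the main E1 for ubiquitin, rose by 0.16 and 0.11 on the log2 scale. Of the 8 E2 enzymes and E2-like proteins without a UBE2 symbol 3 rose and 2 fell in del-4 and 2 rose and 2 fell in del-56. *CDC34*, the relative of *UBE2R2*, rose, at 0.31 for del-4 and 0.21 for del-56, and *BIRC6*, a giant E2 that restrains apoptosis, fell, at -0.19 for del-4 and -0.30 for del-56. *AKTIP*, an inactive E2-like protein, fell at -0.15 for del-4 and -0.23 for del-56. *ATG10* also passed in both clones but overlaps the ribosomal protein gene *RPS23* on the opposite strand, and its value is not read as its own. The rises counted for this list in both clones, and the counts over all listed genes, still include *ATG10*. Over all 127 listed genes outside the family, each counted once, 36 rose and 28 fell in del-4 and 30 rose and 35 fell in del-56, with medians of 0.04 and 0.02. In del-4 50.4% of the listed genes were called and in del-56 51.2%, against 62.9% and 60.0% of the 35 members and 40.7% and 39.7% of all genes tested.

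Summed over the 34 members without the read-through entry, the E2 count was 386790.3 ± 3431 (del-4), 376132 ± 3394 (del-56) and 361808 ± 3060.1 (WT) (SD, n = 3). Each deletion library was above each WT library. *UBE2S*, whose count is less certain for its overlap with *RPL28*, made up 46934 (del-4), 45518 (del-56) and 40440 (WT) of the sum. *UBE2E1* and *UBE2N*, which share exon bases with genes on the opposite strand, are in it too. As a share of all reads on genes the sum was 0.3424 ± 0.0037% (del-4), 0.3424 ± 0.0022% (del-56) and 0.3361 ± 0.0020% (WT). The lowest deletion library, in del-4, was at 0.3390%, just above the highest WT library at 0.3383%.

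The deletion clones were also compared with each other. Between them 6 of the 35 members were higher in del-4 and 2 were higher in del-56, in a comparison in which 19.9% of all genes tested were called, 10.9% higher and 9.0% lower. Without overlap were 15 members, against 34.7% of all genes. The median log2FC was -0.019, and no member passed the rule of a log2FC beyond 1, which 4.28% of genes passed. The 3 UBE2E genes and *UBE2J1* had the lowest adjusted p, and all 4 kept their call when any 1 library was left out. *UBE2J1* had a log2FC of -0.38 (adjusted p = 2.1e-06, SE 0.04), so its fall in del-4 was not shared by del-56. *UBE2L6* was higher in del-4 by 0.31 (adjusted p = 0.021, SE 0.09), *UBE2M* by 0.19 (adjusted p = 0.0092, SE 0.049) and *UBE2T* by 0.16 (adjusted p = 0.017, SE 0.044), and *UBE2G1* was lower, at -0.12 (adjusted p = 0.026, SE 0.035). The call of *UBE2L6* was lost without replicate 1 or 2 of del-4 or 1 or 3 of del-56, that of *UBE2M* without replicate 1 of del-4 or 2 or 3 of del-56, that of *UBE2T* without replicate 2 or 3 of del-4 or 3 of del-56, and that of *UBE2G1* without replicate 1 or 3 of del-4 or 2 or 3 of del-56. Without del-56 replicate 1, *UBE2F* and *UBE2N* were called lower in del-4. With every library scaled to the same total 5 members were higher and 3 lower, while 7.9% of all genes were higher and 13.6% lower.

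**Figure D5:**
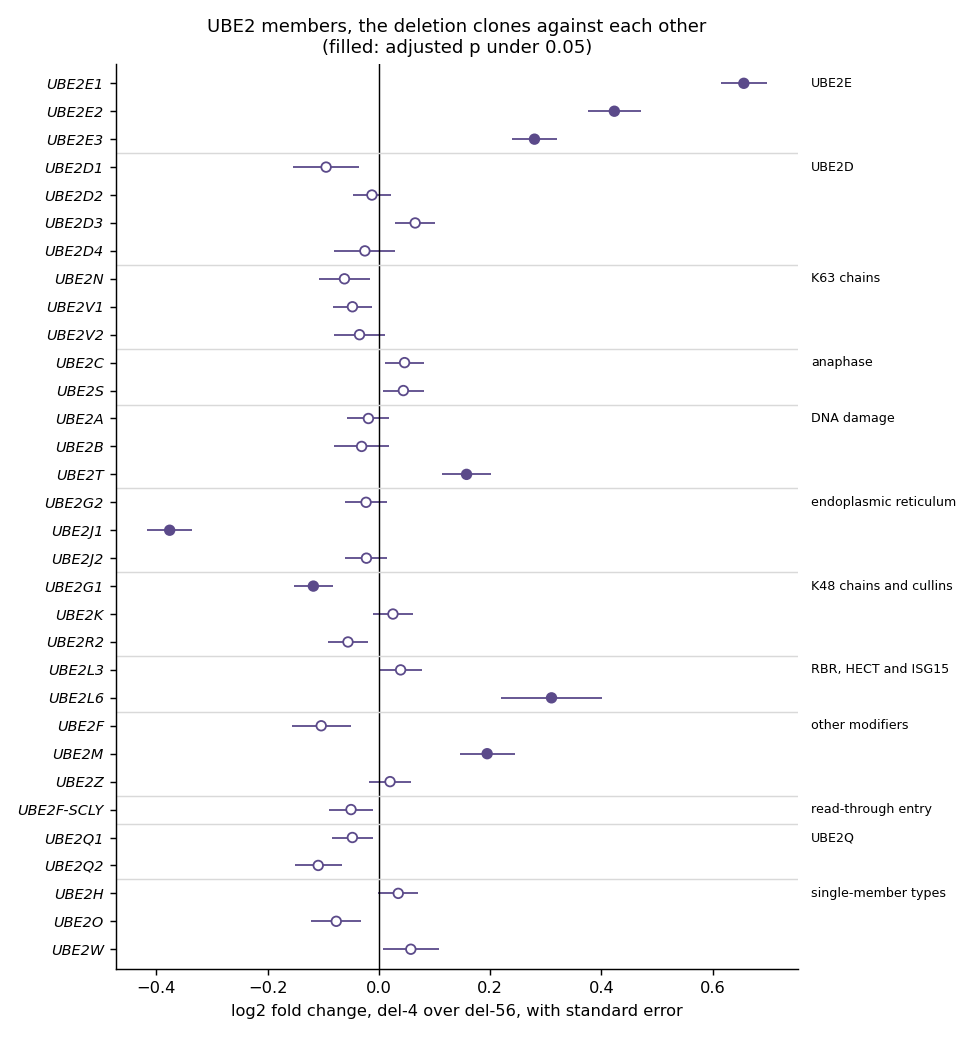
Log2 fold change of del-4 over del-56 (horizontal axis, with standard error) of 32 members with a mean of at least 10, grouped by role. Filled points passed an adjusted p under 0.05. *UBE2E1*, at 0.66, and *UBE2J1*, at -0.38, are the extremes, and most other members lie close to 0.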

How the data were processed

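Polyadenylated RNA was sequenced from 9 LNCaP libraries, 3 per clone, in strand-specific paired reads of 150 bases. Per the labels and the study's methods, the authors checked reads with FastQC 0.11.8, trimmed them with Trim Galore 0.6.5, aligned them to GRCh38 with STAR, counted reads on protein-coding genes of GENCODE 38 with bedtools 2.27.1 and scaled them with DESeq2. The deposited table is a signal of normalized counts, each gene's reads divided by the library's size factor. Multiplying by the size factors gave whole reads for 100.0% of values (within 0.001), and 83.8% of the 21724 values from 1 to 20 reads were even. Of 112 expressed gene pairs in which one gene lay only in introns of a longer gene on the opposite strand, the longer gene counted less than the nested one in 1, and of 22 such pairs on the same strand in 4. Reads may thus have been counted over whole gene spans on both strands, though not all pairs show it. No column was left unused (0), and replicates differed by more than sampling noise (chi-square per gene from 6.15 to 23.0). In del-56 and WT the pairs with replicate 1 were at 19.4 to 23.0. Replicates 2 and 3 were at 6.15 in del-56 and 6.71 in WT. In del-4 replicates 1 and 2 were furthest apart, at 17.2.

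Symbols and GRCh38 positions came from GENCODE 44 (19905 of 19984 genes matched). Each pair of clones was tested with limma 3.58.1 (variance trend) on log2(normalized count + 1) over genes with a mean of at least 1 in the 6 libraries, two-sided, with Benjamini-Hochberg adjustment over all of them and a threshold of 0.05. Fold changes are on that scale, clone over WT unless stated, and paired values are given for del-4 first. A count test was planned and run as an alternative only, on recovered reads (edgeR 4.0.16, DESeq2 1.42.0). Other alternatives were pseudocounts of 0.5 and 5, no filter or a mean of at least 10, quantile normalization, the same total in each library, a single fit over all 9 libraries, a replicate block, and leaving each library out. The fits were tested on simulated data. Deviations of same-numbered replicates of different clones had r from -0.031 to 0.024 over genes with a mean of at least 1. Noise of low counts draws r towards 0, so r cannot settle whether the numbers pair the samples.

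The members and gene lists were chosen with earlier results of these data known. Members with the same call in both clones, a call with a log2FC beyond 0.5, or in the UBE2E group are given per library, and of each list up to 4 genes with the largest change among those called in both clones are named. In the ISG15 and *UBE2E3* lists every gene is named. A member and some list and marker genes stand in the counts but are not reported by name here, and the plots leave that member out.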

Additional observations from a re-analysis of the deposited data

Results flagged for a closer look

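The change against WT differed between the deletion clones for 8 members, by a direct limma test of del-4 against del-56 (Benjamini-Hochberg adjusted p under 0.05 over 17447 genes). These were 22.9% of the 35 members, close to the 19.9% called among all genes tested. The log2FC of del-4 over del-56 was 0.66 for *UBE2E1*, 0.42 for *UBE2E2*, 0.28 for *UBE2E3*, 0.31 for *UBE2L6*, 0.19 for *UBE2M* and 0.16 for *UBE2T*, and it was -0.38 for *UBE2J1* and -0.12 for *UBE2G1*. *UBE2E1* and *UBE2E2* were called in opposite directions against WT in the 2 clones, *UBE2E3*, *UBE2T*, *UBE2L6* and *UBE2G1* in the same direction with a different size, and *UBE2J1* and *UBE2M* in del-4 but not in del-56. The calls of *UBE2L6*, *UBE2M*, *UBE2T* and *UBE2G1* between the clones were each lost in several fits that left out 1 library.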

How the results depend on the processing

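Counts of UBE2 genes called against WT in del-4 ranged, with all libraries kept, from 13 to 19 higher and 4 to 7 lower, with 7 lower and 13 higher when every library had the same total, a scaling that moved the median of all genes by -0.069 (del-4) and -0.029 (del-56) on the log2 scale. In del-56 they ranged from 14 to 17 higher and stayed at 5 lower. Leaving out 1 library gave UBE2 gene counts of 14 to 17 higher and 4 lower in del-4, 12 to 18 higher and 5 to 6 lower in del-56, and 3 to 5 higher and 1 to 4 lower between the clones, the extremes of the last without del-56 replicate 3 (3 higher) and without del-56 replicate 1 (4 lower); it was 1 lower without del-4 replicate 1 or 3 or del-56 replicate 2 or 3. Under an unadjusted p with a log2FC beyond 1 the UBE2 gene counts were 1 higher and 0 lower in del-4 and in del-56 and 0 and 0 between the clones. With the replicate number as a block, 16 UBE2 genes were higher and 4 lower in del-4. The counts were 15 and 5 in del-56 and 6 and 2 between the clones. The block moved no count by over 1.5 times, and whether the numbers pair the samples was not settled. Without the entry *UBE2F-SCLY*, an alternative chosen after seeing the data, 15 UBE2 genes were higher in del-56.

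Some log2FC changed sign, all between values that passed in neither fit. In del-56 *UBE2J1* was -0.020 with the same total and -0.012 to 0.033 when 1 library was left out, the lowest without WT replicate 3. Between the clones *UBE2B* was -0.074 to 0.0085 when 1 library was left out (highest without del-56 replicate 2), *UBE2D3* -0.0020 with quantile normalization, *UBE2H* -0.0055 with the same total, *UBE2J2* -0.040 to 0.0044 (highest without del-56 replicate 1), *UBE2K* -0.015 with the same total and -0.016 with quantile normalization, and *UBE2Z* -0.020 with the same total and -0.0042 to 0.037 (lowest without del-56 replicate 3). Of members called in no comparison, the same total gave -0.018 for *UBE2D4*, -0.032 for *UBE2L3* and -0.029 for *UBE2N* in del-4, -0.015 for *UBE2Q1* in del-56 and -0.0012 for *UBE2L3* between the clones. In del-56, quantile normalization, edgeR and DESeq2 gave 0.0055, 0.0018 and 0.00049 for *UBE2G2* and 0.00076, 0.0016 and 0.00033 for *UBE2L3*. Leaving out 1 library gave -0.046 to 0.027 for *UBE2D1* in del-4, -0.025 to 0.021 for *UBE2G2* and -0.022 to 0.032 for *UBE2L3* in del-56, and -0.031 to 0.0028 for *UBE2A*, -0.059 to 0.021 for *UBE2D4* and -0.046 to 0.00024 for *UBE2G2* between the clones.

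The same total ended the calls of *UBE2G1*, *UBE2H*, *UBE2K*, *UBE2M* and *UBE2O* in del-4, *UBE2D2* and *UBE2F-SCLY* in del-56 and *UBE2T* between the clones. Quantile normalization ended those of *UBE2G1*, *UBE2K* and *UBE2M* in del-4. The replicate block ended those of *UBE2K* and *UBE2M* in del-4 and *UBE2D2* in del-56. The single fit of 9 libraries ended those of *UBE2K* and *UBE2M*, edgeR that of *UBE2K* and the fit with no filter that of *UBE2M*, all in del-4. Calls gained were *UBE2D2* in del-4 (single fit, DESeq2, a mean of at least 10, a pseudocount of 5), *UBE2V2* in del-56 (single fit), *UBE2A* in del-4 (same total, quantile normalization), *UBE2G2* and *UBE2Q1* in del-4 and *UBE2Q2* between the clones (same total). The cause was not tested. Across the settings that kept all libraries, 945 log2FC of single UBE2 genes kept direction and call, 18 lost the call and 10 gained it.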
